A study of Mus musculus with 7 samples.

Results

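The cathepsin proteases were examined in retinal microglia (rMG) of Irf8 KO mice through the 10 genes Ctsa, Ctsb, Ctsc, Ctsd, Ctse, Ctsh, Ctsk, Ctsl, Ctss and Ctsz. The genes were taken from the table by their symbols and make up 10 of the 40743 genes listed. RNA-seq was performed on 7 libraries. Of these, 3 came from unlasered mice and 4 from mice examined 7 days after laser-induced choroidal neovascularisation (CNV), an injury in which laser spots let vessels grow from the choroid towards the retina. The mice of both groups carried Irf8-/- and Cx3cr1GFP/+, that is, loss of the transcription factor IRF8 and GFP in place of 1 copy of the fractalkine receptor gene, on a C57BL/6J background. The unlasered mice were adult per the study's text, and an age in weeks for these libraries was not given in the sources used here. Cells were sorted as CD45lowCD11b+Cx3cr1GFP/+Ly6C-Ly6G-, with 10000 cells per sample on average from pools of 3 to 4 mice. In lasered mice the sort took the central 70% of the retina and left out the periphery, so that laser and retinal region cannot be told apart. Wild-type libraries were not analysed here.

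Cathepsins are proteases that cut proteins in the acidic lysosome, and microglia hold many of them because they take up and degrade debris. Most are cysteine proteases that are made as inactive proenzymes and are held in check by the cystatins. Ctsd and Ctse encode aspartic proteases, and Ctsa encodes a serine carboxypeptidase. Besides bulk degradation, single cathepsins have narrower tasks, such as trimming the invariant chain from MHC class II in antigen-presenting cells or activating other proenzymes.

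The coding sequence around the catalytic residue separates these classes, and it is shown for each gene from the longest coding transcript in GENCODE M21 (GRCm38). In the 7 cysteine protease genes the capitals mark the codon of the catalytic cysteine.
Ctss: cagggttcttgtggtgccTGCtgg
Ctsb: cagggctcctgcggctctTGTtgg
Ctsl: cagggccagtgcgggtctTGTtgg
Ctsk: cagggccagtgtggttccTGTtgg
Ctsh: cagggggcctgtggcagcTGCtgg
Ctsc: caagaatcttgtggaagcTGCtac
Ctsz: ccacagtactgtggttccTGCtgg
Over these 24 bases, 8 were identical in all 7 genes, and pairs of genes shared 10 to 21 bases.

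The aspartic proteases carry a pair of such sites, and the capitals mark the codon of each catalytic aspartate.
Ctsd, first site: tttGATactggctcctct
Ctsd, second site: gtgGACacagggacatct
Ctse, first site: tttGACaccggttcatcc
Ctse, second site: gtgGACacagggacctct
In Ctsa the capitals mark the codon of the catalytic serine.
Ctsa: ggagagAGCtatgctggc
Despite this family likeness, no stretch of 50 bases in the coding sequence of 9 of the 10 genes occurred in a transcript of another listed gene, so that reads of that length over the coding sequence can be told apart. The exception was Ctsd, in which 64.2% of such stretches (760 of 1184) occurred in Gm49369, a read-through gene that runs from Ctsd into its neighbour Ifitm10.

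Levels are given as CPM, read counts brought to a common library total, with 20427558 to 36022954 reads in unlasered and 37133297 to 45919042 in lasered libraries. A level of 3 reads, 0.0653 to 0.147 CPM by library, was taken as the floor, which covers counting error only. Irf8 itself was read at 463 to 582 CPM in the 7 libraries, listed only jointly with the overlapping gene Gm20388, and the name Irf8 KO is that of the labels. The 10 defining genes of microglia, such as Tmem119 and P2ry12, summed to 26611 to 31723 CPM in unlasered and 23647 to 32351 CPM in lasered libraries. The 15 rod photoreceptor genes summed to 2144 to 19799 CPM in unlasered and 317 to 1055 CPM in lasered libraries, none of them was under 1 CPM in every library, and 13 of 15 passed the test described below. The 7 border macrophage genes summed to 2210 to 2757 CPM in unlasered and 1371 to 1591 CPM in lasered libraries. Of these, 2 of 6 tested were called. Their list holds Mrc1 and Cd163, which the paper reports as higher in Irf8-deficient rMG themselves after laser than in controls. The sum is therefore not assigned to other cells. The 6 Mueller glia genes summed to 646 to 944 CPM in unlasered and 276 to 589 CPM in lasered libraries (1 of 5 called). The list for neutrophils stayed low (0.613 to 13.9 CPM, with Ly6g, Camp and Ngp under 1 CPM in every library), with 1 of 2 tested genes called. The lists for B cells (0.108 to 8.13 CPM) and retinal pigment epithelium (23.2 to 27.4 CPM, with Rpe65, Lrat, Rgr, Ttr and Tyrp1 under 1 CPM in every library) also stayed low, with 0 of 1 and 0 of 3 called. By the same test 6.93% of all genes were called. The part of the listed cell types in the cathepsin values was not tested. With the rod genes left out of the library totals, every tested member kept its direction and its side of the threshold. In such bulk samples a smaller number of cells of a type and less RNA per cell cannot be told apart.

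As a family, the cathepsins took up a large share of the RNA of these cells. The 10 genes held 1.68%, 1.81% and 2.05% of all reads in unlasered and 1.92% to 2.18% in lasered libraries, counting only reads listed for a member alone or, for Ctss, also with a pseudogene. Of these reads in lasered libraries, Ctss took 28.9% to 31.0%, Ctsb 23.3% to 25.3% and Ctsd 15.5% to 17.3%, whereas Ctsh took 0.0857% to 0.645%. By its mean, Ctss was the gene at rank 8 of the whole table in unlasered and rank 7 in lasered libraries. Ctsb held ranks 10 and 9, and Ctsd, on the reads listed for it alone, ranks 14 and 19.

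**Figure D1:**
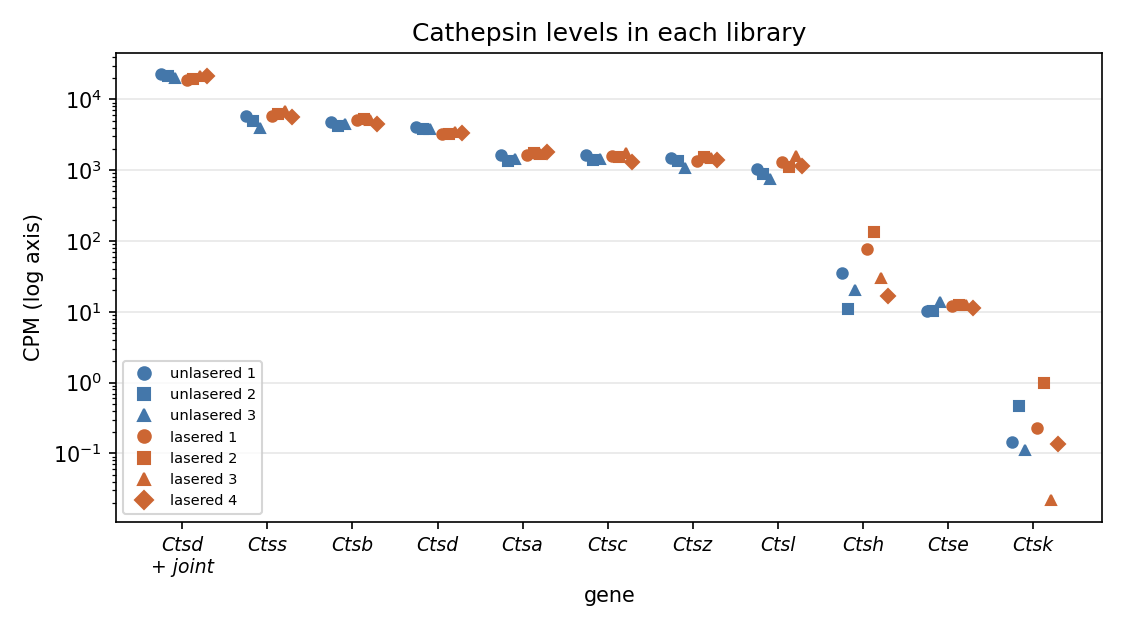
Level of each cathepsin gene in CPM (log axis) in the 3 unlasered (blue) and 4 lasered (orange) libraries, ordered by mean; Ctsd + joint is the sum of Ctsd and the reads listed jointly with its read-through gene. Of the 10 genes, 7 lie between 744 and 6763 CPM in every library, Ctsh spreads from 10.9 to 133 CPM, Ctse stays between 10.2 and 13.9 CPM and Ctsk is under 1 CPM.

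For comparisons between genes, levels were divided by the exonic length of the gene (CPM per kilobase). On this scale the order in unlasered libraries was Ctss (3596 ± 693, SD, n = 3), Ctsd (1662 ± 71.1), Ctsz (911 ± 142), Ctsb (744 ± 46.4), Ctsa (311 ± 29.5), Ctsc (258 ± 23.4), Ctsl (136 ± 21.6), Ctsh (4.93 ± 2.75), Ctse (3.62 ± 0.67) and Ctsk (0.160 ± 0.130). The ranges of the neighbours Ctsz and Ctsb, and those of Ctsh and Ctse, overlapped between libraries, whereas the other neighbours were apart. The order was the same in lasered libraries, where the overlapping neighbours were Ctsc and Ctsl, and Ctsh and Ctse. When the longest transcript took the place of all exons, Ctsb moved ahead of Ctsz and Ctsc ahead of Ctsa, so that these positions depend on the length used. For Ctsd, the reads listed for it alone were divided by all 2351 exonic bases. Part of these bases is shared with the read-through gene, whose joint reads were not counted here, so that the value is a low estimate. The place of Ctsd depends on which reads and which bases are counted for it, as described below.

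The comparison of lasered with unlasered libraries asks how the transcriptional state of rMG labelled Irf8 KO differs after tissue injury. It was made with limma on log2(CPM + 1), over the 17496 genes that reached 1 CPM in 3 or more libraries, and fold changes are on that scale. Of the 9 members tested, 0 were called at an adjusted p under 0.05 by limma, edgeR or voom and 1, Ctsl, by DESeq2. For all genes tested the share called was 6.93% by limma (3.86% higher and 3.07% lower with laser), 6.92% by edgeR, 5.02% by voom and 13.2% by DESeq2. At an unadjusted p under 0.05, limma called 3 of 9 (Ctsl, Ctsd and Ctss), beside 22.7% of all genes. The median log2 fold change of the 9 genes was 0.14, with 8 positive and 1 negative, and the median of all genes tested was -0.01.

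In 3 of 9 members the lasered and unlasered libraries did not overlap, beside 21% of all genes tested. Ctsl and Ctsa lay higher in every lasered library (2 of 9, beside 10.4%), and the reads listed for Ctsd alone lay lower (1 of 9, beside 10.7%). With so few genes these counts are not read as a property of the family.

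Ctsl (ENSMUSG00000021477, chromosome 13, 64359337 to 64370890, protein-coding) encodes cathepsin L, a strong endopeptidase of the lysosome. Its level was 1023, 876 and 744 CPM in unlasered libraries 1, 2 and 3 and 1321, 1115, 1586 and 1161 CPM in lasered libraries 1 to 4. Every lasered library lay above every unlasered library, and lasered library 3 stood highest. The mean was 881 ± 140 CPM (SD, n = 3) without and 1296 ± 212 CPM (SD, n = 4) with laser. The log2 fold change was 0.55 (SE 0.16, 95% CI 0.20 to 0.91), which is 1.47-fold (1.15 to 1.88), with an adjusted p of 0.0711 by limma. DESeq2 gave 0.56 with an adjusted p of 0.0243, and over all alternatives the adjusted p lay between 0.0243 and 0.224. Ctsl therefore lay near the threshold, and its call depends on the test. A few reads that Ctsl shares with CT030159.4 were listed apart, at 0 to 0.174 CPM.

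The position of Ctsl relative to other members was also examined within each library, where the library total cancels. For 1 read of Ctsb there were 0.167 to 0.213 reads of Ctsl in unlasered and 0.214 to 0.311 in lasered libraries. The ranges did not overlap, although unlasered library 1 and lasered library 2 nearly met at 0.213 and 0.214. Of all members' reads, Ctsl held 4.41% to 4.99% without and 5.41% to 7.26% with laser. Ctsl was taken up for its small adjusted p, and these ratios use the same reads. They are therefore a description and not a further test. By the likeness of their profile over the 7 libraries (root mean square difference of centred log2 values), the nearest of 17495 genes to Ctsl were Slc11a2 (0.0711), which encodes a metal ion transporter of endosomes, and the processed pseudogenes AC129016.2 (0.0713) and Gm7289 (0.0718). Slc11a2 was read at 30.01, 24.9 and 20.8 CPM without and at 35.8, 34.9, 50.2 and 34.7 CPM with laser, with lasered library 3 again highest.

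Ctss (ENSMUSG00000038642, chromosome 3, 95526786 to 95556403, protein-coding) encodes cathepsin S, which stays active outside acidic compartments and cleaves the invariant chain in antigen-presenting cells. It was read at 5772, 4981 and 3898 CPM in unlasered libraries 1 to 3 and at 5791, 6164, 6763 and 5707 CPM in lasered libraries 1 to 4. The groups overlapped, since unlasered library 1 lay above lasered library 4, and unlasered library 3 stood lowest. The log2 fold change was 0.34 (SE 0.14, 95% CI 0.02 to 0.66), with an adjusted p of 0.196 by limma. Without unlasered library 3 it was 0.18 (adjusted p = 0.309 by limma), so that 1 library carried much of the difference. The row of Ctss also holds reads listed jointly with Hmgb1-ps5, a pseudogene, which could not be separated.

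Ctss lies beside Ctsk on the chromosome, and the 30 bases before its RefSeq start (chr3:95526756-95526785, GRCm38, plus strand) are shown because they hold the core of an interferon-stimulated response element, the kind of motif which interferon regulatory factors are known to bind. The capitals mark the match to this core, GAAA followed after any 2 bases by GAAA.
Ctss: tctttaaatGAAACCGAAAtgaaagttcac
Promoter windows of 250 bases before to 50 after the start, from RefSeq, were found for 7 of 10 members in 8 windows, and not for Ctsb, Ctse and Ctsh. Searched on both strands, the interferon-stimulated response element core was found in 1 member (Ctss) and in 3.44% of all 32851 windows. GAGGAAGT, the site of the myeloid factor PU.1, was found in Ctsc and Ctss (3.2% of all windows), and the ETS-IRF composite element, GGAA followed after any 2 bases by GAAA, in no member (2.72%). TCACGTG, an E-box of lysosomal genes, was found in Ctsa and Ctsd (3.77%). These are matches of letters and say nothing of binding in these cells.

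Ctsb (ENSMUSG00000021939, chromosome 14, 63122462 to 63145923) encodes cathepsin B, which cuts within proteins and also removes dipeptides from their ends. Its level was 4807, 4253 and 4452 CPM without and 5055, 5211, 5099 and 4474 CPM with laser. Lasered library 4 lay within the unlasered range, and the log2 fold change was 0.14 (95% CI -0.09 to 0.37, adjusted p = 0.464 by limma). Differences beyond 1.29-fold higher lie outside this interval.

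Ctsz (ENSMUSG00000016256, chromosome 2, 174427493 to 174439039) encodes the carboxypeptidase cathepsin Z. It was read at 1484, 1368 and 1085 CPM without and at 1326, 1536, 1476 and 1406 CPM with laser, with overlap between the groups. Its log2 fold change was 0.14 (95% CI -0.15 to 0.43, adjusted p = 0.574 by limma). As for Ctss, the lowest value came from unlasered library 3, and without that library the log2 fold change of Ctsz was 0.0092.

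Ctsc (ENSMUSG00000030560, chromosome 7, 88278085 to 88310888) encodes cathepsin C, a dipeptidyl peptidase that activates the serine proteases of granules. Ctsc was read at 1652, 1409 and 1427 CPM without and at 1604, 1527, 1727 and 1324 CPM with laser. The groups overlapped over most of their range, and the log2 fold change was 0.04 (95% CI -0.23 to 0.32, adjusted p = 0.871 by limma). Without lasered library 3 its sign turned, at -0.01. Of the 6 proenzymes that cathepsin C is known to activate, 1, Prtn3, passed the filter on low values. Prtn3, which encodes proteinase 3, was read at 1.08, 1.31 and 2.53 CPM without and at 12.05, 12.005, 4.03 and 2.26 CPM with laser. Its adjusted p was 0.106 by limma, and DESeq2 called it (log2 fold change 2.20, adjusted p = 0.00238).

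**Figure D2:**
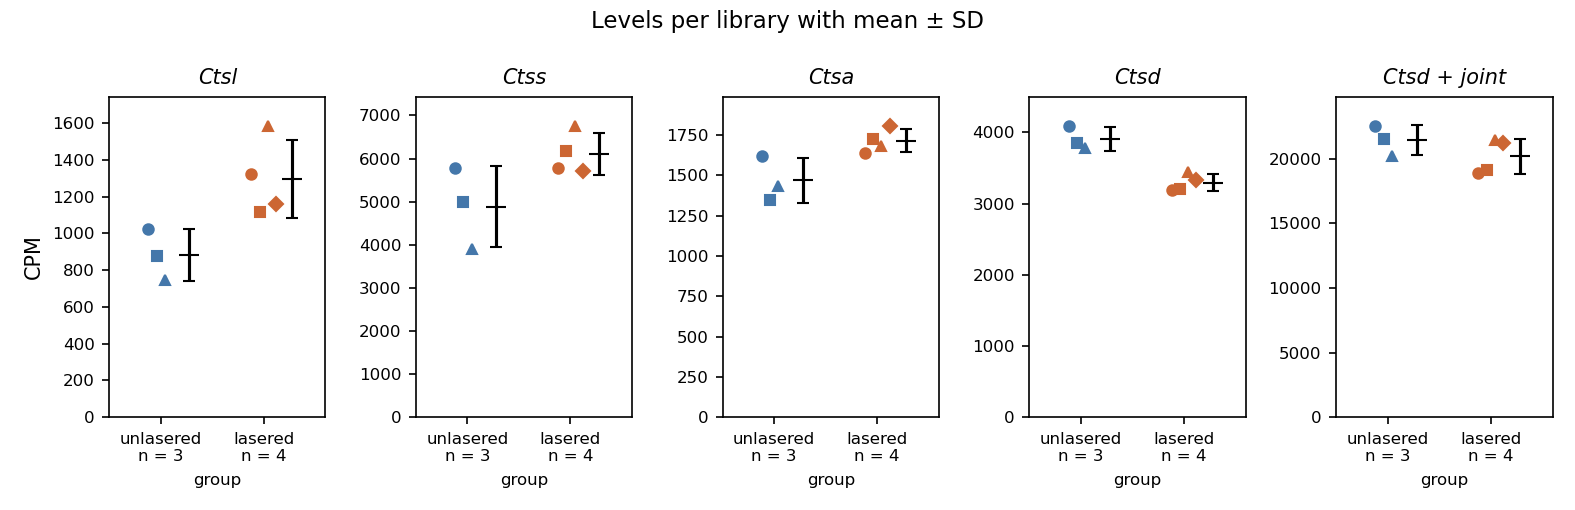
Levels of Ctsl, Ctss, Ctsa, Ctsd and the sum of Ctsd with its jointly listed reads, in CPM from 0, for each unlasered (blue) and lasered (orange) library, with the mean and SD of each group in black and a symbol for each library number. Ctsl and Ctsa lie apart upwards and Ctsd downwards, whereas the groups overlap for Ctss and for the Ctsd sum.

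Ctsh (ENSMUSG00000032359, chromosome 9, 90054152 to 90076089) encodes the aminopeptidase cathepsin H and was the most variable member above 10 CPM. It was read at 35.4, 10.9 and 20.3 CPM in unlasered libraries 1 to 3 and at 77.9, 133, 30.3 and 16.5 CPM in lasered libraries 1 to 4. Lasered libraries 1 and 2 lay above all unlasered libraries, whereas lasered libraries 3 and 4 lay within their range. The lasered libraries thus spanned 8.07-fold, whereas the 6 most abundant members (Ctss, Ctsb, Ctsd, Ctsa, Ctsc and Ctsz) spanned 1.08-fold to 1.30-fold and Ctsl 1.42-fold. The log2 fold change of Ctsh was 1.23 (SE 0.66, 95% CI -0.25 to 2.70), the largest of the members, with an adjusted p of 0.308 by limma.

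The difference in Ctsh varied in size with the libraries left out and stayed positive in each case. It was 0.74 without lasered library 2 and 0.81 without unlasered library 2, and 0.16 (adjusted p = 0.939 by limma) without lasered libraries 1 and 2, a choice made after the values were seen. It was larger, at 1.72 (adjusted p = 0.123 by limma), without lasered library 4, at 1.62 without unlasered library 1 and at 1.44 without lasered library 3. The lasered libraries had the order 2, 1, 3, 4 for Ctsh, from highest to lowest, and the same order for the class II genes Cd74, H2-Aa, H2-Ab1, H2-Eb1 and H2-DMa. H2-DMa, which helps to load peptides on class II and was named after its values were seen, was read at 23.7, 17.3 and 20.7 CPM without and at 72.7, 122, 30.4 and 18.0 CPM with laser. Among 17495 genes its profile was the third nearest to that of Ctsh (0.327), after P2ry10 (0.310), a receptor gene of white blood cells, and the pseudogene Gm5398 (0.324). P2ry10 was read at 0.0876 to 0.930 CPM without and at 0.5925 to 5.92 CPM with laser. It passed the filter of 1 CPM only through lasered libraries, so its likeness to Ctsh is not independent of that filter. By the same measure the other class II genes were far from Ctsh, with Cd74 at position 5274, H2-Ab1 at 16050, H2-Aa at 16477 and H2-Eb1 at 16864. The measure also counts the size of the swings. The lasered libraries spanned 41.1-fold to 68.6-fold for these genes and 8.07-fold for Ctsh, so these positions do not separate size from pattern. In the unlasered libraries Ctsh and H2-DMa had the order 1, 3, 2, whereas the other 4 class II genes had the order 3, 1, 2. This likeness was looked up after the Ctsh values were seen, and it is a description over 7 libraries.

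Summed markers of monocytes, dendritic cells and neutrophils had the same order of lasered libraries as Ctsh, whereas those of border macrophages and B cells did not. The 5 monocyte genes summed to 134, 182, 32.8 and 11.3 CPM in lasered libraries 1 to 4. In unlasered libraries 1 to 3 they summed to 61.6, 21.4 and 66.6 CPM, and 1 of 5, Ly6c2, was under 1 CPM in every library. The 7 dendritic cell genes summed to 144, 168, 43.0 and 34.5 CPM in lasered libraries 1 to 4 and to 18.3 to 40.9 CPM in unlasered libraries, with 1 of 7, Clec9a, under 1 CPM in every library. The 6 neutrophil genes summed to 5.03, 13.9, 2.20 and 1.54 CPM in lasered libraries 1 to 4 and to 0.613 to 11.2 CPM in unlasered libraries. Of the monocyte, dendritic cell and neutrophil genes tested, 0 of 4, 1 of 6 and 1 of 2 were called, beside 6.93% of all genes. The 10 microglia genes had the reverse order, at 25216, 23647, 29550 and 32351 CPM in lasered libraries 1 to 4. The part of other cells in the Ctsh values was not tested. Ctss did not share the order of these libraries, being highest in lasered library 3.

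**Figure D3:**
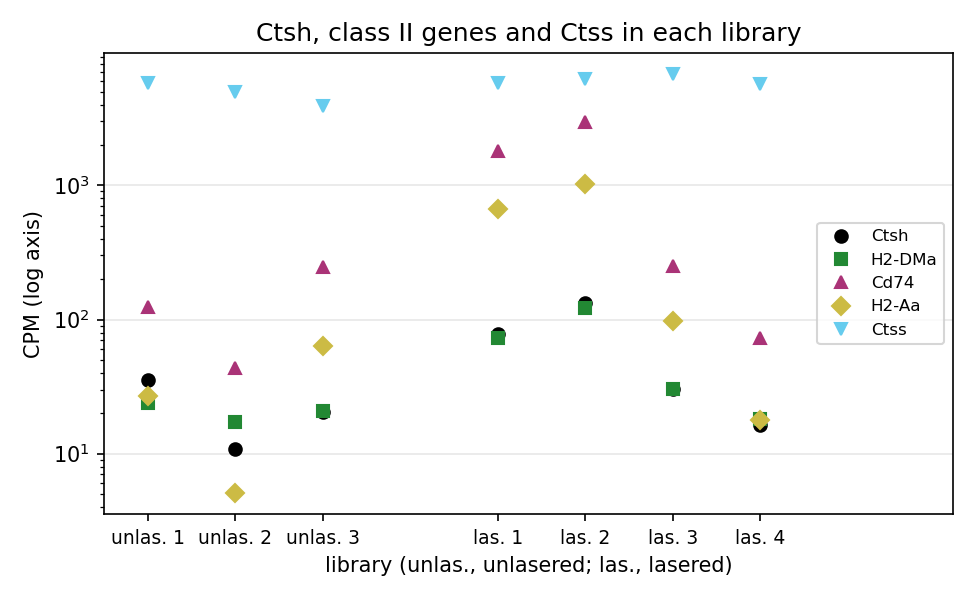
Levels of Ctsh, H2-DMa, Cd74, H2-Aa and Ctss in CPM (log axis) in each of the 3 unlasered and 4 lasered libraries. Ctsh and the 3 class II pathway genes are highest in lasered library 2, next in lasered library 1 and lowest of the lasered libraries in library 4, whereas Ctss stays between 3898 and 6763 CPM throughout.

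Ctsk (ENSMUSG00000028111, chromosome 3, 95499256 to 95509362) encodes cathepsin K, the collagen-degrading protease of osteoclasts. It was counted with 3, 16 and 4 reads in unlasered and with 10, 44, 1 and 5 reads in lasered libraries, which is 0.0218 to 0.980 CPM. The gene therefore did not reach the filter of 1 CPM and was not tested. Its highest count came from lasered library 2, and lasered library 3 lay under the floor of 3 reads.

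Ctsd (ENSMUSG00000007891, chromosome 7, 142375911 to 142388038) encodes cathepsin D, the main aspartic protease of the lysosome. The reads listed for Ctsd alone came to 4094, 3851 and 3774 CPM in unlasered and 3195, 3200, 3450 and 3327 CPM in lasered libraries. Every lasered library lay below every unlasered library, and the log2 fold change was -0.25 (SE 0.09, 95% CI -0.45 to -0.04), with an adjusted p of 0.147 by limma. These reads are, however, a minor part of those that may belong to the gene.

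A read-through gene named AC034099.1 in the table (ENSMUSG00000110040, Gm49369 in GENCODE M21, chromosome 7, 142371096 to 142382667, same strand) covers 1498 of the 2351 exonic bases of Ctsd, 808 of them with exons of its own. Reads that fell on both genes were listed under AC034099.1, together with reads of AC034099.1 alone and those shared with Ifitm10. In the coding sequence the shared stretch ran without a gap from base 396 to base 1204 of 1233, so that the second active site printed above was on it and the first was not. AC034099.1 was listed at 18475, 17677 and 16449 CPM in unlasered and at 15722, 15969, 17984 and 17914 CPM in lasered libraries, 4.36 to 5.39 times the reads of Ctsd alone. The reads listed for Ifitm10 alone came to 22.7 to 40.5 CPM. How many of the joint reads came from Ctsd transcripts cannot be read from the table.

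With the joint reads added, which was tried only once these rows had been seen, Ctsd stood at 22569, 21528 and 20223 CPM in unlasered and 18917, 19169, 21435 and 21240 CPM in lasered libraries. The groups then overlapped, and the log2 fold change was -0.09 (SE 0.10, 95% CI -0.30 to 0.13), with an adjusted p of 0.646 by limma. The separation of the groups seen in the reads of Ctsd alone was thus not present in the sum. In the sum, Ctsd ranked second among all genes in both groups. Per kilobase it came to 9120 ± 500 CPM (SD, n = 3) without and 8588 ± 566 CPM (SD, n = 4) with laser, ahead of Ctss, so that the first place among cathepsins also depends on these reads. The share of the sum listed for Ctsd alone was 17.9% to 18.7% in unlasered and 15.7% to 16.9% in lasered libraries.

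Ctse (ENSMUSG00000004552, chromosome 1, 131638306 to 131675505) encodes cathepsin E, an aspartic protease of endosomes. Ctse was read at 10.2, 10.3 and 13.9 CPM without and at 12.1, 12.5, 12.5 and 11.5 CPM with laser. The lasered values lay inside the unlasered range, and the log2 fold change was 0.09 (95% CI -0.30 to 0.47, adjusted p = 0.805 by limma).

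Ctsa (ENSMUSG00000017760, chromosome 2, 164832873 to 164841032) encodes cathepsin A, a serine carboxypeptidase that also protects β-galactosidase and neuraminidase in a complex. It was read at 1621, 1350 and 1434 CPM without and at 1639, 1725, 1684 and 1808 CPM with laser. The groups did not overlap, although unlasered library 1 and lasered library 1 lay close together. The mean was 1469 ± 139 CPM (SD, n = 3) without and 1714 ± 71.6 CPM (SD, n = 4) with laser. Its log2 fold change was 0.23 (SE 0.10, 95% CI -0.01 to 0.46), with an adjusted p of 0.237 by limma.

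**Figure D4:**
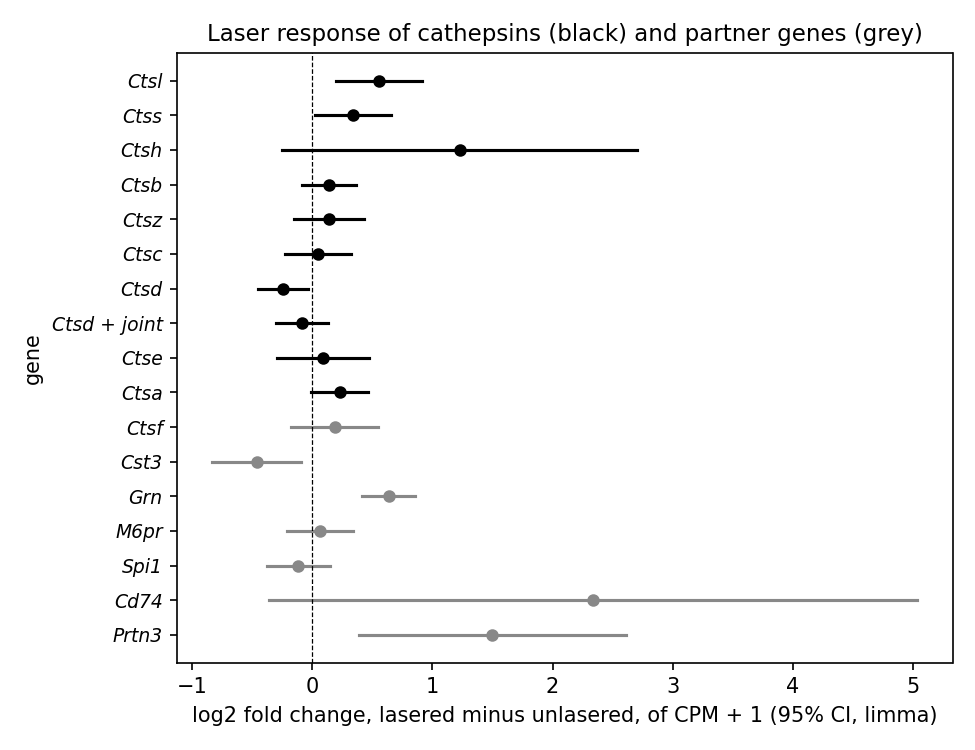
Log2 fold change (lasered minus unlasered, of CPM + 1) with its 95% confidence interval from limma for the 9 tested cathepsin genes and the Ctsd sum (black) and for the called or most abundant gene of each partner list (grey). Among the cathepsins the intervals of Ctsl, Ctss and Ctsd do not reach 0 before adjustment, that of Ctsh is the widest (-0.25 to 2.70), and among the partners Grn (0.64) passed the adjusted test.

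Genes that act with the cathepsins were taken from 7 lists with 62 genes, of which 33 passed the filter on low values. Of these, limma, edgeR and voom each called 1, Grn, beside 6.93%, 6.92% and 5.02% of all genes tested, and DESeq2 called 8, beside 13.2%. The genes that DESeq2 alone called were named for that reason, after their values were seen, and their calls therefore depend on the test. Of the 13 other cathepsin genes, 2 were tested and 0 called by any of the 4 tools, with 0 at an unadjusted p under 0.05 by limma, while 11 did not pass the filter. Ctsf, a cysteine protease and the most abundant of them, was read at 271, 276 and 206 CPM without and at 256, 254, 282 and 353 CPM with laser (log2 fold change 0.19, adjusted p = 0.543 by limma). The groups overlapped.

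Among 21 inhibitors of cathepsins, 9 were tested. By limma, edgeR and voom 0 were called, by DESeq2 1, Serpina3g (log2 fold change 3.30, adjusted p = 0.0145), and at an unadjusted p under 0.05 limma called 4 of 9, beside 22.7% of all genes. Serpina3g, which encodes a serpin that inhibits cathepsins, was read at 0 to 0.638 CPM without and at 0.916 to 4.43 CPM with laser (adjusted p = 0.0613 by limma). It passed the filter of 1 CPM only through lasered libraries, so its higher level with laser is not independent of that filter. Cst3, which encodes the secreted inhibitor cystatin C, was the most abundant and was read at 10418, 8309 and 6676 CPM without and at 5459, 5988, 5606 and 7246 CPM with laser. Lasered library 4 lay above unlasered library 3, and the log2 fold change was -0.46 (SE 0.16, 95% CI -0.83 to -0.10, adjusted p = 0.127 by limma). The inhibitors did not all follow Cst3, since 6 of the 9 tested had a positive and 3 a negative log2 fold change. Cstb, named after its values were seen, lay higher in every lasered library (log2 fold change 0.51, adjusted p = 0.138 by limma). For the single pair of Ctss and Cst3, the ratio of reads within a library was also examined. For 1 read of Cst3 there were 0.554 to 0.600 reads of Ctss in unlasered and 0.788 to 1.21 in lasered libraries. These ranges did not overlap, and the ratio was looked up after the single values were seen and was not tested.

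Of 6 genes for the activation and partners of cathepsins, all were tested and 1, Grn, was called by limma and rose. DESeq2 also called Ifi30, a thiol reductase of the lysosome (log2 fold change 0.93, adjusted p = 0.0135), which limma did not (0.83, adjusted p = 0.123). Grn (ENSMUSG00000034708, chromosome 11, 102430315 to 102437048) encodes progranulin, which is split into granulins in the lysosome by cathepsins. Grn was read at 2416, 2301 and 2191 CPM without and at 3735, 3520, 3748 and 3317 CPM with laser. Every lasered library lay above every unlasered library, with a log2 fold change of 0.64 (SE 0.10, 95% CI 0.42 to 0.85), 1.55-fold, and an adjusted p of 0.0106 by limma. Grn was called without each library in turn, and not without lasered libraries 1 and 2 together (0.62, adjusted p = 0.124 by limma).

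**Figure D5:**
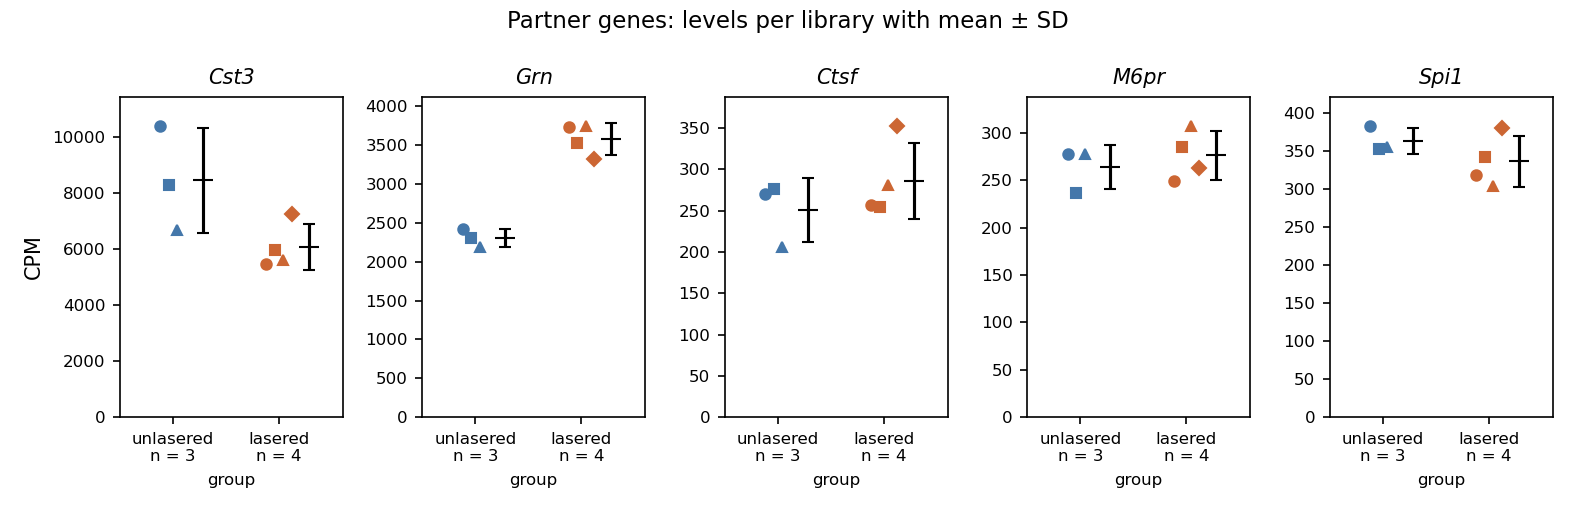
Levels of Cst3, Grn, Ctsf, M6pr and Spi1 in CPM from 0 for each unlasered (blue) and lasered (orange) library, with the mean and SD of each group in black and a symbol for each library number. The 4 lasered values of Grn (3317 to 3748 CPM) lie above the 3 unlasered values (2191 to 2416 CPM), whereas the groups overlap for the other 4 genes.

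Among 6 genes that sort enzymes to the lysosome, 5 were tested and 0 called by any of the 4 tools, with 0 at an unadjusted p under 0.05 by limma. M6pr, the mannose 6-phosphate receptor that carries proenzymes to the lysosome, was read at 278, 237 and 278 CPM without and at 249, 285, 307 and 263 CPM with laser (log2 fold change 0.06, adjusted p = 0.806 by limma). Of 5 lysosomal and myeloid transcription factors, all were tested, 0 were called by limma, edgeR and voom, and 1, Tfec, by DESeq2 (log2 fold change 1.09, adjusted p = 0.0164). At an unadjusted p under 0.05, limma called 1 of 5, beside 22.7% of all genes. Spi1, which encodes PU.1 and is known to partner with IRF8, was read at 384, 352 and 356 CPM without and at 319, 342, 304 and 381 CPM with laser (log2 fold change -0.12, adjusted p = 0.611 by limma).

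The 5 genes around the class II invariant chain were all tested. By limma, edgeR and voom 0 were called, and by DESeq2 3, H2-Aa, H2-Ab1 and H2-Eb1 (log2 fold changes 3.82, 3.94 and 4.13, adjusted p 0.0358, 0.0239 and 0.0235). At an unadjusted p under 0.05, limma called 3 of 5, beside 22.7% of all genes. Cd74, the invariant chain itself, was read at 124, 43.8 and 245 CPM without and at 1808, 2989, 252 and 72.8 CPM with laser (log2 fold change 2.34, SE 1.19, adjusted p = 0.286 by limma). Lasered libraries 1 and 2 stood far above the others, as for Ctsh. For Ctss, whose product trims this chain, lasered libraries 2 and 4, the highest and the lowest of the lasered libraries in Cd74, held 6164 and 5707 CPM.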

How the data were processed

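The members and gene lists were chosen with earlier results of these data known. Retinal microglia were sorted from pools of mice, and libraries were made with SMARTer and Nextera XT kits. Per the paper's methods, the authors removed adapters and duplicate reads (cutadapt, FastUniq), mapped the rest with bowtie2, ran HTSeq with annotation version 90 to count reads per gene and used DESeq2 for normalisation. The submitters' processing notes name GRCm38. The values deposited by the authors are headed TPM, but they are CPM: all of them (100%) were whole multiples of 1 step per library within 0.00011 CPM, whatever the length of the gene. Reads recovered from these steps served for count tests. Reads on overlapping genes were listed jointly, in 4492 rows.

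Groups were taken from the titles of the samples. For the comparison of lasered (n = 4) with unlasered (n = 3) libraries, R 4.3.3 ran limma 3.58.1 (with statmod 1.5.0) on log2(CPM + 1) with trend and robust empirical Bayes, two-sided, with Benjamini-Hochberg adjustment over the 17496 genes that reached 1 CPM in 3 or more libraries. P-values set the difference between the groups against the spread between these pools, and not between single mice. Alternatives were a pseudocount of 0.1, no filter, a mean of at least 10 reads, median-of-ratios and TMM scaling, totals without rod genes, edgeR 4.0.16, DESeq2 1.42.0, voom, a replicate block, each library left out, unadjusted p-values, and the study's thresholds (log2 fold change over 1.5, p under 0.05, a mean of at least 100). Named were all members, each called gene and the most abundant gene of each list, and the 3 genes nearest to the member with the smallest adjusted p. Coordinates came from GENCODE M21 (GRCm38), in which 40472 rows were matched. Tables were joined in Python 3.11.15 (numpy 2.4.6, pandas 2.3.3, scipy 1.17.1) and figures drawn with matplotlib 3.10.9.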

Additional observations from a re-analysis of the deposited data

Results flagged for a closer look

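Of the 42 member and list genes tested, 2 had a lasered library far from the other 3 by Dixon's criterion, which chance meets in about 1 in 20 groups. The count covers lasered libraries only, so that a distant unlasered library, as in Ctse (10.2, 10.3 and 13.9 CPM), is not part of it. Nagpa, which uncovers the mannose 6-phosphate tag on lysosomal enzymes, was read at 178 CPM in lasered library 4 and at 140 to 145 CPM in the others. Tfeb, which encodes a regulator of lysosomal genes, was read at 24.2 CPM in lasered library 3 and at 29.9 to 30.2 CPM in the others.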

How the results depend on the processing

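The count of members called stayed at 0 except with DESeq2 (1) and at an unadjusted p (3), and leaving out each library gave 0 to 0. Of the single members, Ctsl passed only with DESeq2, and Ctsc turned sign only without lasered library 3 (-0.0118, with -0.0118 to 0.117 over the libraries left out). The other partner genes called, 1 as reported, numbered 2 with a pseudocount of 0.1, 8 with DESeq2, 0 without lasered libraries 1 and 2, and 1 to 5 without single libraries (2 without unlasered library 3, 5 without lasered library 4). Over all genes, 1213 were called as reported, 385 without a filter, 2318 with DESeq2, 3963 at an unadjusted p, 54 with the study's thresholds, 0 (limma) without lasered libraries 1 and 2, and 262 to 1406 without single libraries (407, 262, 388 and 781 without lasered libraries 1 to 4). The cause was not tested, beyond the fewer libraries. With the replicate number as a block, 3 genes were called, 0 of them members and 0 partner genes (Grn, adjusted p = 0.0946 by limma). Same-numbered libraries did not deviate together (r = -0.183, -0.126 and -0.0234), so the numbers were not taken as a pairing. Reads of Ctss alone could not be separated from those listed jointly.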
